A study of Mus musculus with 8 samples.

Results

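Small nucleolar RNA host genes are mostly non-coding genes whose introns carry small nucleolar RNAs (snoRNAs). The members were the rows of the gene table named SNHG followed by a number, or named GAS5, ZFAS1, EPB41L4A-AS1, TAF1D-AS1 or DANCR. This gave 29 of the 58304 genes kept from the table, and TAF1D-AS1 had no row under that symbol. Of the 29, 24 had a mean of at least 1 FPKM (fragments scaled to gene length and to library size) over the 8 libraries and were tested. A further 3 members had counts but lay below that level, and 2 had none.

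A host gene is transcribed and spliced, and the snoRNAs are cut out of the removed introns. Box C/D snoRNAs guide 2′-O-methylation of ribosomal RNA, box H/ACA snoRNAs guide its pseudouridylation, and the small Cajal body RNAs (scaRNAs) do the same for spliceosomal RNAs. The spliced host RNA often starts with the pyrimidine tract of ribosomal protein mRNAs. It can enter the cytoplasm, where nonsense-mediated decay, which removes RNAs with an early stop codon, degrades many host RNAs. Several host RNAs were first named for growth arrest or for cell differentiation. GAS5 was found as a transcript that accumulates in growth-arrested cells, and DANCR was named in epidermal progenitor cells, where it holds back differentiation.

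The study compared gene expression in wounds that received rFGF4, a recombinant fibroblast growth factor, with wounds that received PBS, a salt solution. The labels give 4 libraries for each group, from skin within 2 mm of wounds of C57BL/6 mice aged 6 to 8 weeks, at 6 days. The table goes against the labelled species, since all 58304 gene identifiers are human and 0 are mouse. The groups are therefore called the libraries labelled rFGF4 and the libraries labelled PBS, matched by the column names, and nothing is stated about mouse wounds or about which human cells were used. Library totals were 62044121 to 73680756 counts.

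The labelled tissue was checked on marker lists. All 15 keratinocyte markers reached a mean of 1 FPKM, while 0 of 9 fibroblast markers and 0 of 9 markers of muscle, blood and nerve did. Only CD68 did among 10 macrophage and neutrophil markers, and only CDH5 and EGFL7 did among 8 endothelial markers. At 0 counts in every library were 2 of the fibroblast markers, 3 of the macrophage and neutrophil markers and 1 of the muscle, blood and nerve markers. The summed FPKM of the keratinocyte list was 3622 to 3808 in the rFGF4 libraries and 3814 to 4258 in the PBS libraries. That of the fibroblast list was 0.411 to 0.517 and that of the macrophage and neutrophil list 8.16 to 11.04 in the rFGF4 libraries, against 0.776 to 0.865 and 7.72 to 8.86 in the PBS libraries. The endothelial list summed to 4.19 to 5.91 FPKM in the rFGF4 libraries and 3.28 to 4.53 in the PBS libraries, and the muscle, blood and nerve list to 0.0652 to 0.197 FPKM in the rFGF4 libraries and 0.0474 to 0.239 FPKM in the PBS libraries. The part of these differences in the results on host genes was not tested. Fewer cells of a type and less RNA per cell cannot be told apart in such libraries.

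The host genes spanned a 56-fold range of level among the tested members. By mean FPKM over all libraries, 12 members stood at 10 or more and 12 at 1 to 10. SNHG29, which carries SNORD49A, SNORD49B and SNORD65, was the most abundant, at 88.4, 88.8, 90.1 and 97.9 FPKM in the rFGF4 libraries and 92.1, 93.3, 94.9 and 98.7 FPKM in the PBS libraries. SNHG6, host of SNORD87, was next, at 39.7, 40.7, 38.4 and 57.5 FPKM in the rFGF4 libraries and 49.9, 38.7, 53.0 and 45.2 FPKM in the PBS libraries. ZFAS1, host of the SNORD12 group and antisense to the start of ZNFX1, had 31.9, 34.9, 36.8 and 39.8 FPKM in the rFGF4 libraries and 30.4, 38.3, 31.6 and 36.3 FPKM in the PBS libraries. The 2 groups overlapped for each of these 3 genes. GAS5 followed at 32.1 ± 2.73 FPKM in the rFGF4 libraries and 33.3 ± 1.13 FPKM in the PBS libraries (mean ± SD, n = 4 each). The libraries of GAS5 and ZFAS1 overlapped in FPKM within both groups. SNHG29, SNHG6, ZFAS1 and GAS5 together made up 51.1% of the summed FPKM of the host genes. The lowest tested members were SNHG9 and SNHG18, and the smallest group mean of any tested member was 1.22 FPKM, for SNHG18 in the rFGF4 libraries, so no member was tested through one group alone.

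**Figure D1:**
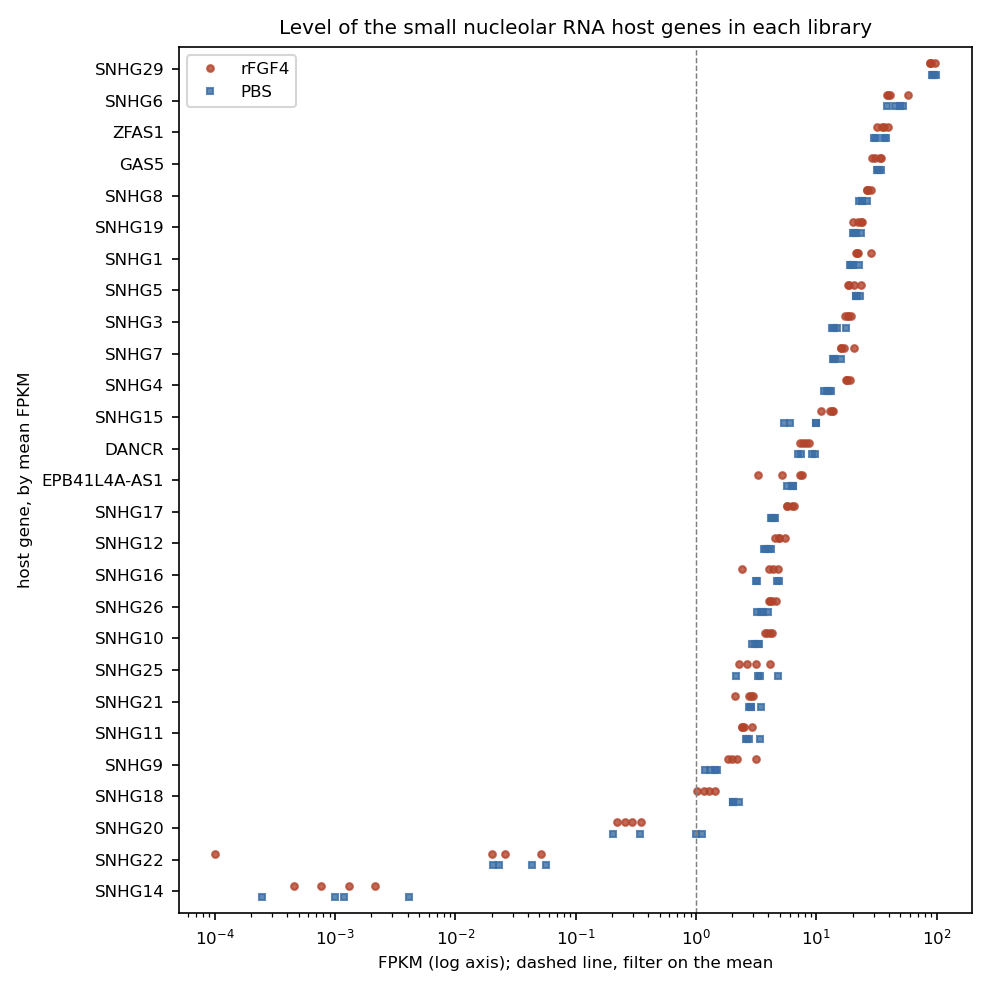
FPKM of 27 host genes in each library on a log axis, ordered by their mean, with rFGF4 libraries as circles above PBS libraries as squares. SNHG29 stands apart at 88.4 to 98.7 FPKM, and SNHG20, SNHG22 and SNHG14 lie below the dashed filter line at 1 FPKM (a library at 0.0001 has 0 counts).

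The question of the comparison was which host genes differed between the libraries labelled rFGF4 and those labelled PBS. SNHG4, SNHG17, SNHG10 and SNHG12 were higher and SNHG18 was lower in the rFGF4 libraries, while 19 of the 24 tested members did not pass. These were 16.7% of the members higher and 4.17% lower, beside 5.49% higher and 4.54% lower among the 11536 genes tested. The share lower is near that of all genes. The median log2 fold change (rFGF4 over PBS) of the 24 members was 0.09, against 0.00 over all tested genes, and 13 of the 24 were positive. The test was edgeR's quasi-likelihood test with TMM scaling, with p-values adjusted by Benjamini-Hochberg over all 11536 genes and a threshold of 0.05. Levels between groups are given below in CPM, which is depth-scaled (TMM, tested genes) and not scaled to gene length. Calls for SNHG4, SNHG17 and SNHG18 held under all 18 alternative settings run. Their largest adjusted p-values over these settings (edgeR, DESeq2 or limma) were 0.012, 0.031 and 0.0495, the last just under the threshold. Calls for SNHG10 and SNHG12 ended without any 1 of the 8 libraries.

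**Figure D2:**
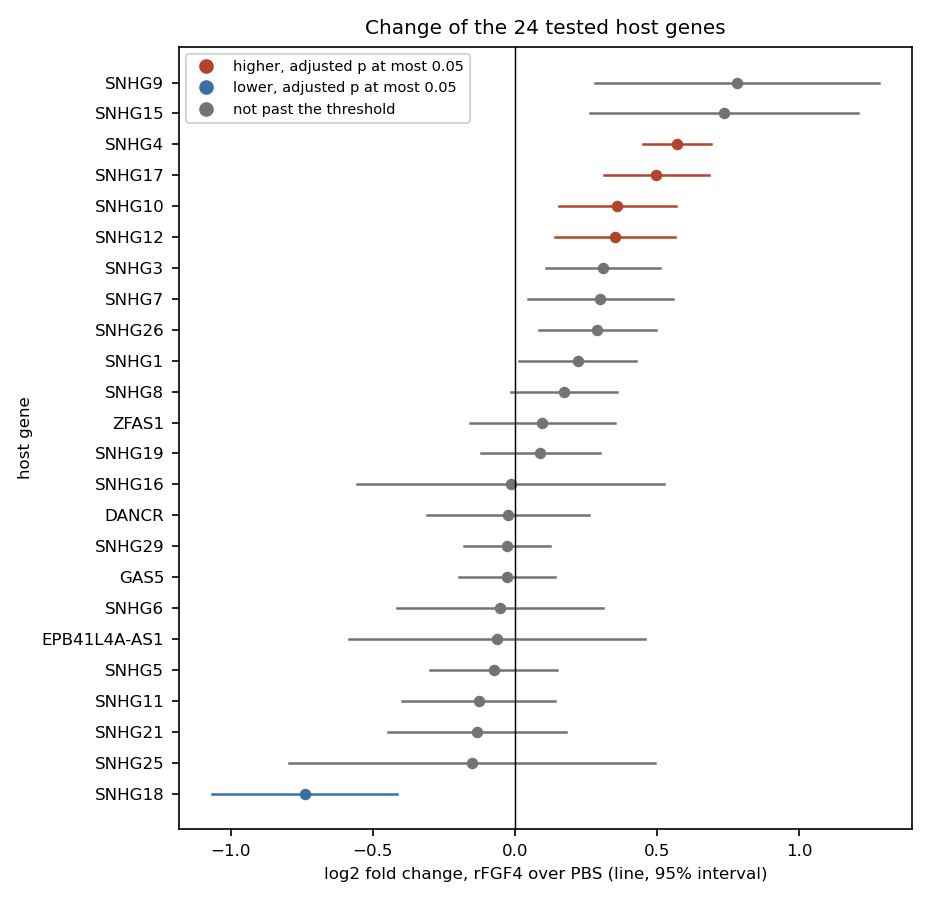
Log2 fold change of the 24 tested host genes, rFGF4 over PBS, with its 95% interval as a line. SNHG4, SNHG17, SNHG10 and SNHG12 are past the threshold as higher and SNHG18 as lower, and SNHG9 and SNHG15 have the largest positive values with wide intervals.

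SNHG4 carries the H/ACA snoRNA SNORA74A and lies on chromosome 5 at 139274102 to 139283244, plus strand, as the table gives it (no genome build was named in the sources used here). It had 96.3, 99.4, 99.7 and 100.2 CPM in the rFGF4 libraries and 70.0, 62.5, 67.4 and 66.6 CPM in the PBS libraries. Every rFGF4 library was above every PBS library, and the rFGF4 libraries lay within 4 CPM of each other. The log2 fold change was 0.57 (SE 0.05, edgeR adjusted p = 0.000766), a 1.49-fold rise. This was the smallest p among the host genes.

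SNHG17 carries SNORA71A to SNORA71D and lies on chromosome 20 at 38420587 to 38435361, minus strand. It had 28.6, 31.0, 29.5 and 34.6 CPM in the rFGF4 libraries and 21.2, 21.4, 21.8 and 23.1 CPM in the PBS libraries. The groups did not overlap, and the PBS libraries were close together. The log2 fold change was 0.50 (SE 0.08, edgeR adjusted p = 0.00683). SNHG11, which carries SNORA71E and SNORA60 and lies close by on the same chromosome on the opposite strand, did not pass, at 8.88 ± 0.629 CPM in the rFGF4 libraries and 9.70 ± 1.39 CPM in the PBS libraries (log2 fold change −0.13, SE 0.12).

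SNHG12 and SNHG10 showed smaller differences. SNHG12, on chromosome 1 at 28578538 to 28582986, carries SNORA44, SNORA61, SNORA16A and SNORD99. It had 25.1, 24.7, 23.9 and 29.7 CPM in the rFGF4 libraries and 18.8, 19.7, 21.4 and 21.2 CPM in the PBS libraries. Replicate 4 was the highest rFGF4 library, and the groups did not overlap. The log2 fold change was 0.35 (SE 0.09, edgeR adjusted p = 0.0482). SNHG10, host of SCARNA13 on chromosome 14 at 95532297 to 95534872, had 8.73, 9.74, 9.40 and 10.1 CPM in the rFGF4 libraries and 7.79, 6.84, 7.17 and 7.72 CPM in the PBS libraries. Its lowest rFGF4 library was above its highest PBS library. The log2 fold change was 0.36 (SE 0.09, edgeR adjusted p = 0.0388). Adjusted p-values over the alternative settings ran from 0.00701 to 0.138 for SNHG12 and from 0.00452 to 0.121 for SNHG10, and both calls also ended under each of the 3 other filters on low values. The call for SNHG12 ended with upper-quartile scaling too.

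SNHG18 was the only member lower in the rFGF4 libraries by the test. It carries SNORD123 and lies on chromosome 5 at 9546200 to 9550609, plus strand. It had 2.99, 2.36, 2.80 and 3.58 CPM in the rFGF4 libraries and 4.75, 5.35, 4.70 and 4.81 CPM in the PBS libraries. No rFGF4 library reached the lowest PBS library. The log2 fold change was −0.74 (SE 0.14, edgeR adjusted p = 0.0144). With limma on log2(FPKM + 1) it was smaller, at −0.48, since the pseudocount understates the change of low genes.

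**Figure D3:**
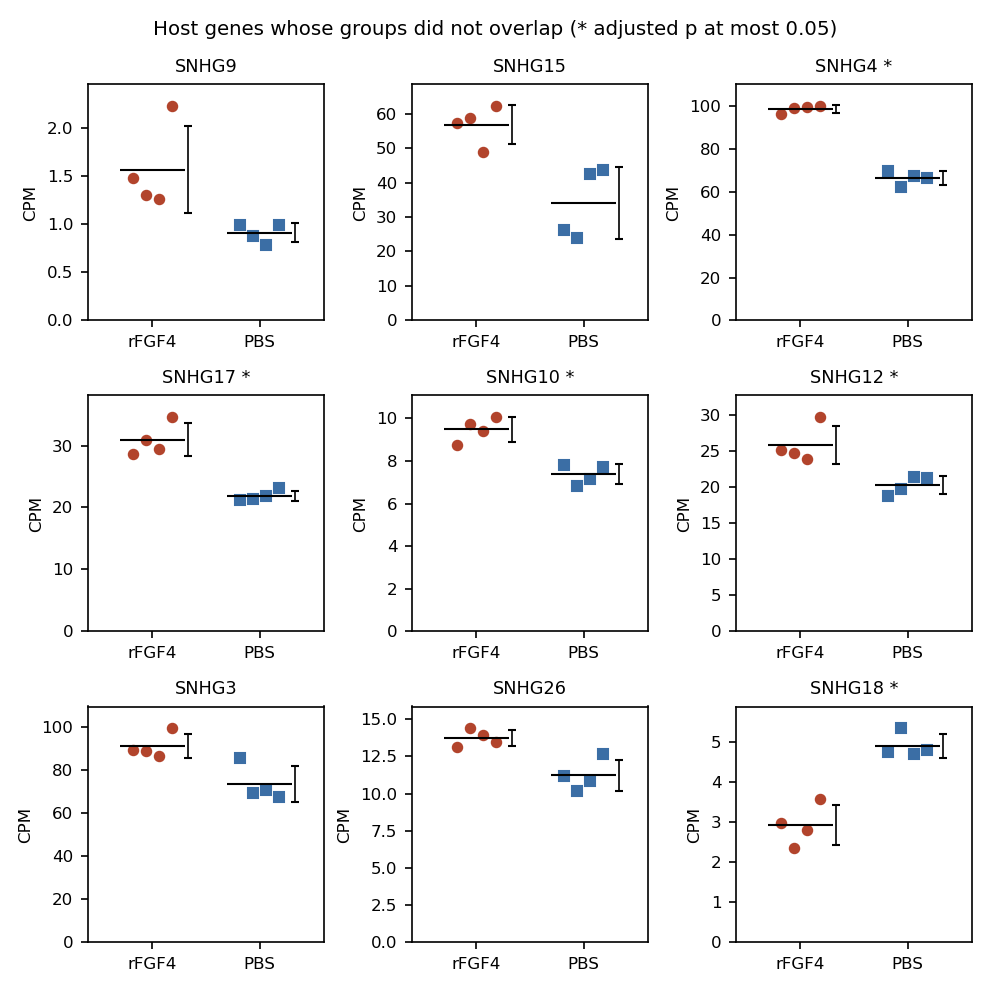
CPM of the 9 host genes whose groups did not overlap, one panel a gene, with rFGF4 libraries as circles on the left and PBS libraries as squares on the right, a line at the mean and a bar of 1 SD. A star marks genes past the threshold. SNHG4 has rFGF4 libraries at 96.3 to 100.2 CPM, and SNHG15 has PBS libraries at 23.8 to 43.8 CPM.

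Another 4 members had groups that did not overlap and did not pass the threshold. In all, 8 of 24 members had every rFGF4 library above every PBS library, and 1 the reverse, beside 10.1% and 9.26% of all tested genes. SNHG15, host of SNORA9, had 57.4, 58.6, 49.0 and 62.2 CPM in the rFGF4 libraries and 26.3, 23.8, 42.4 and 43.8 CPM in the PBS libraries. Its PBS libraries fell into a lower and a higher pair, and the log2 fold change was 0.74 (95% interval 0.27 to 1.21, edgeR adjusted p = 0.0595). SNHG9, the short host of SNORA78, had 1.47, 1.305, 1.26 and 2.22 CPM in the rFGF4 libraries and 0.988, 0.881, 0.783 and 0.987 CPM in the PBS libraries. Replicate 4 was the highest rFGF4 library, and the log2 fold change of 0.78 was the largest of any member (95% interval 0.28 to 1.28, edgeR adjusted p = 0.0595). It rested on few counts, at 84 to 153 in the rFGF4 libraries and 49 to 73 in the PBS libraries. Over the alternative settings it ran from 0.47 to 0.87. SNHG3, host of SNORA73A and SNORA73B, stood at 86.8 to 99.6 CPM in the rFGF4 libraries and 67.7 to 85.7 CPM in the PBS libraries (log2 fold change 0.31, SE 0.09, edgeR adjusted p = 0.0607). SNHG26, host of SNORD93, stood at 13.1 to 14.4 CPM in the rFGF4 libraries and 10.2 to 12.7 CPM in the PBS libraries (log2 fold change 0.29, SE 0.09, edgeR adjusted p = 0.0841). SNHG15 passed without PBS replicate 4 (edgeR adjusted p = 0.0471) and SNHG3 without PBS replicate 1 (edgeR adjusted p = 0.0190). In both cases the library left out was the gene's highest PBS library, so the difference had to widen. Neither gene passed when any other library was left out.

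The abundant hosts GAS5, SNHG29, ZFAS1, SNHG5 and SNHG6 were not past the threshold. GAS5 had 179, 194, 172 and 212 CPM in the rFGF4 libraries and 185, 192, 191 and 205 CPM in the PBS libraries. The rFGF4 libraries were spread on both sides of the PBS libraries, and the 95% interval of the log2 fold change ran from −0.20 to 0.14. For SNHG29 the interval was −0.18 to 0.12, and for ZFAS1 it was −0.16 to 0.35. SNHG5, host of SNORD50B, had an interval of −0.30 to 0.15, and SNHG6, whose rFGF4 replicate 4 (90.4 CPM) was far above the other rFGF4 libraries, had one of −0.41 to 0.31. SNHG1, which carries a run of C/D snoRNAs with SNORD26 and SNORD27 among them, had 97.4, 125, 101 and 105 CPM in the rFGF4 libraries and 101, 87.8, 90.0 and 87.9 CPM in the PBS libraries. PBS replicate 1 reached into the rFGF4 range, and the log2 fold change was 0.22 (SE 0.09, edgeR adjusted p = 0.174). SNHG7, host of SNORA17B, had 0.30 (SE 0.11, adjusted p = 0.135 by edgeR), SNHG8, host of SNORA24, had 0.17 (SE 0.08) and SNHG19, host of SNORD60, had 0.09 (SE 0.09).

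DANCR, which carries SNORA26, stood at 20.7 to 25.3 CPM in the rFGF4 libraries and 19.3 to 26.9 CPM in the PBS libraries. The rFGF4 libraries fell inside the PBS range, and the 95% interval of the log2 fold change ran from −0.31 to 0.26. EPB41L4A-AS1, host of SNORA13, had 20.6, 29.0, 31.2 and 13.8 CPM in the rFGF4 libraries and 25.4, 25.4, 25.0 and 23.2 CPM in the PBS libraries. The rFGF4 libraries lay on both sides of a narrow PBS range, with an interval of −0.58 to 0.46. SNHG16, host of SNORD1A to SNORD1C, was spread in both groups, at 28.1, 25.6, 31.8 and 16.3 CPM in the rFGF4 libraries and 20.2, 30.4, 20.1 and 32.2 CPM in the PBS libraries. Of the tested members only SNHG25 had a wider interval than its −0.56 to 0.53. SNHG25 (log2 fold change −0.15, SE 0.28), host of SNORD104 and SNORA50C, and SNHG21 (−0.13, SE 0.14), host of SCARNA15, did not pass either.

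The spread within groups differed between members. The coefficient of variation (SD over mean, in CPM) of the 24 tested members had a median of 9.99% in the rFGF4 libraries, with a range of 1.81% to 33.7%, and of 7.95% in the PBS libraries, with a range of 3.83% to 33.6%. It was above 20% for 5 members in the rFGF4 libraries and for 3 in the PBS libraries. Replicate 4 was the highest rFGF4 library for 17 of the 24 tested members, the 5 members past the threshold among them, and the lowest for 4. Replicate 4 was also the highest PBS library for 12 of the 24 and the lowest for 2. The summed level of all host genes was 1426, 1482, 1459 and 1657 CPM in the rFGF4 libraries and 1359, 1368, 1385 and 1471 CPM in the PBS libraries. Replicate 4 was the highest in both groups, and the groups overlapped. That rFGF4 library also had the largest share of counts from mitochondrially encoded genes, at 12.9%, with 9.15% to 11.7% in the other rFGF4 libraries and 9.63% to 10.8% in the PBS libraries. Without it, 2 members were higher and 1 was lower, SNHG4, SNHG17 and SNHG18.

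The 5 members below the filter were not tested. SNHG20, host of SCARNA16, had 2.19, 1.87, 1.71 and 2.72 CPM in the rFGF4 libraries and 1.52, 7.35, 8.07 and 2.60 CPM in the PBS libraries. PBS replicates 2 and 3 were high, and the other PBS libraries lay below and inside the rFGF4 range. SNHG22, host of SCARNA17, stood at 0 to 0.179 CPM in the rFGF4 libraries and 0.0799 to 0.189 CPM in the PBS libraries. SNHG14, a long transcript of the Prader-Willi region that carries large clusters of C/D snoRNAs in neurons, stood at 0.0582 to 0.220 CPM in the rFGF4 libraries and 0.0472 to 0.423 CPM in the PBS libraries. Most levels of SNHG22 and SNHG14 were at or under the floor of 12 counts, taken as 3 fragments at about 4 counts each. That floor is 0.163 to 0.193 CPM of a library's total. SNHG20 lay above it in every library, at 112 to 505 counts. SNHG27 and SNHG28 had 0 counts in all 8 libraries, which allows levels up to that floor. Floors cover counting error only.

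The hosts were grouped by the snoRNA entries of the table that lie inside them on the same strand, a grouping chosen after the values were seen and described with no test. Of the 10 tested hosts that hold H/ACA entries (names starting SNORA) only, 2 were higher, 0 were lower and 7 had positive log2 fold changes, with a median of 0.31. They were SNHG4, SNHG17, SNHG3, SNHG7, SNHG8, SNHG9, SNHG11, SNHG15, DANCR and EPB41L4A-AS1. Of the 9 that hold C/D entries (names starting SNORD) only, 0 were higher, SNHG18 was lower and 4 had positive values, with a median of −0.01. SNHG12 and SNHG25 hold both kinds, SNHG10 and SNHG21 hold scaRNA entries, and GAS5 had no snoRNA entry under these names inside its span. A missing entry does not show that a host carries no snoRNA, so GAS5 was placed in no group. Over all tested genes 5.49% were higher, 4.54% were lower and 50.3% had positive values, with a median of 0.00.

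The snoRNA entries were thinly counted. They lie inside their hosts on the same strand, so their counts may include RNA of the host and are not levels of the cut-out snoRNAs alone. The table had 132 snoRNA or scaRNA entries inside 26 hosts. Of these, 83 lay in SNHG14 and had 0 counts in every library. The other 49 had counts, with 265 as the highest count of any entry in any library. Several of them, such as SNORD25, SNORD28 and SNORD50B, had only 1 count in each library, where 1 fragment was taken as about 4 counts. The filter was passed by 17 entries, and 1 of them passed the test. SNORA73B, the H/ACA snoRNA of SNHG3, takes part in ribosomal RNA processing. Its entry had 2.08, 1.90, 2.05 and 1.89 CPM in the rFGF4 libraries and 1.35, 1.07, 1.53 and 1.03 CPM in the PBS libraries. The groups did not overlap, and the log2 fold change was 0.66 (SE 0.17, edgeR adjusted p = 0.0390), beside 0.31 for its host. The call ended without any one of 7 of the libraries and held without PBS replicate 3, and it also ended under the 3 other filters (adjusted p up to 0.125 by edgeR). For the hosts past the threshold, SNORA44 (log2 fold change 0.39, SE 0.32) and SNORD99 (0.33, SE 0.28) in SNHG12, and SNORA71A (−0.29, SE 0.36) and SNORA71C (0.15, SE 0.42) in SNHG17 did not pass. The snoRNA entries of SNHG4, SNHG10 and SNHG18 were below the filter. SNORD12 in ZFAS1, also below it and chosen after its values were seen, had 2, 1, 1 and 1 counts in the rFGF4 libraries and 28, 1, 17 and 12 counts in the PBS libraries, so PBS replicates 1, 3 and 4 were at or above the floor and the others were below it.

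Host genes often start beside, or lie across, another gene. Tested genes that overlapped a member or started within 2000 bases of its start on the opposite strand made 40 pairs with 23 members. The pairs include the 17 snoRNA entries inside hosts that passed the filter, so not all are neighbouring genes. Of the paired genes, 3 were higher, with the snoRNA entry SNORA73B among them, and 2 were lower. These are few calls, beside 5.49% higher and 4.54% lower among all tested genes, so the pairs are given as descriptions. SNHG18 starts 125 bases from the start of SEMA5A, which encodes a transmembrane semaphorin and runs the other way. SEMA5A had 14.7, 13.7, 12.1 and 11.5 CPM in the rFGF4 libraries and 23.8, 22.9, 19.6 and 18.4 CPM in the PBS libraries. Its groups did not overlap, and it fell by 0.70 on the log2 scale (SE 0.12, edgeR adjusted p = 0.00827), beside the fall of 0.74 in SNHG18. SNHG1 starts 188 bases from SLC3A2, the heavy chain of an amino acid transporter. SLC3A2 was lower, at 695 ± 20.6 CPM in the rFGF4 libraries and 822 ± 43.1 CPM in the PBS libraries (n = 4 each, log2 fold change −0.24, SE 0.05, edgeR adjusted p = 0.0260), with SNHG1 at 0.22. The call for SLC3A2 ended without rFGF4 replicate 1 or 3, without PBS replicate 1, 2 or 4, and with no filter (adjusted p up to 0.0869 by edgeR). The call for SEMA5A held under all 18 alternatives, with a smaller fold change of −0.38 by limma on log2(FPKM + 1).

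SNHG4 lies inside the span of one of the 2 entries named MATR3, a gene for a nuclear RNA-binding protein, on the same strand. That entry had 205, 161, 1.92 and 1.56 CPM in the rFGF4 libraries and 2.57, 173, 190 and 1.85 CPM in the PBS libraries. It was high in 2 libraries of each group and near 0 in the others. SNHG4 did not follow it, at 96.3 to 100.2 CPM in all the rFGF4 libraries. The sum of both MATR3 entries was 236 ± 26.5 CPM in the rFGF4 libraries and 256 ± 23.8 CPM in the PBS libraries (n = 4 each). Counts of SNHG4 are uncertain where the authors' counting could split them with MATR3. For the other called hosts, SNHG12 overlaps TRNAU1AP (log2 fold change 0.03, SE 0.09) and SNHG10 overlaps GLRX5 (0.07, SE 0.09), both on the opposite strand and neither past the threshold. No strand setting was stated by the submitters' notes, so overlapping genes may share counts. SNHG3 overlaps RCC1 (0.10, SE 0.12) on the same strand. The 3 paired genes that were higher included SNORA73B, the snoRNA entry inside SNHG3. The others were SNORA64 (0.92, SE 0.17) and the pseudogene entry AC005363 (0.71, SE 0.15), which start within 2000 bases of SNHG9. RPS2, the ribosomal protein gene that starts 133 bases from SNHG9, had 0.06 (SE 0.18) and did not pass. The call for AC005363 ended without rFGF4 replicate 1, 2 or 3, without PBS replicate 1, 2 or 3, and with no filter (adjusted p up to 0.0774 by edgeR).

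**Figure D4:**
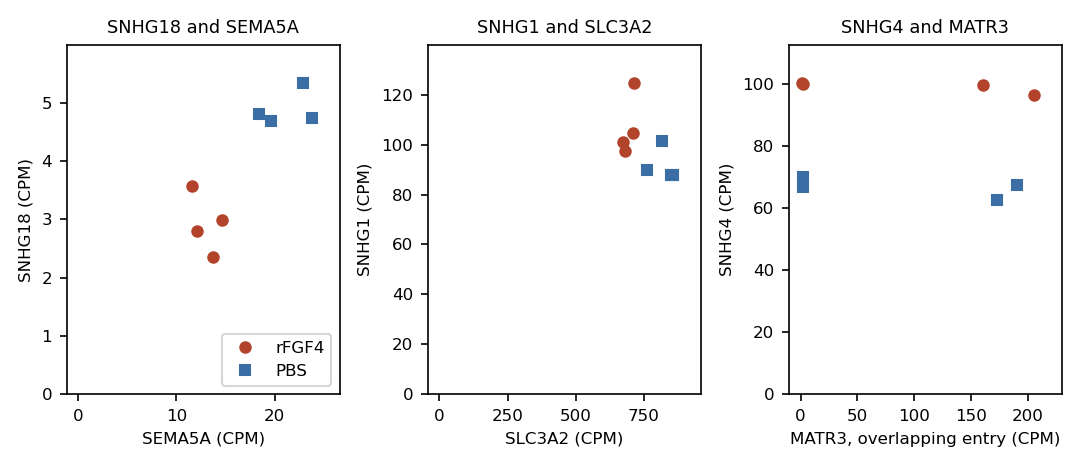
CPM of 3 host genes (vertical) against that of a neighbouring gene (horizontal) in each library, rFGF4 as circles and PBS as squares. SNHG18 and SEMA5A are both lower in the rFGF4 libraries. SLC3A2 is lower there too, while SNHG1 overlaps between the groups and did not pass. SNHG4 stays at 96.3 to 100.2 CPM in the rFGF4 libraries whether the overlapping MATR3 entry is near 0 or above 160 CPM.

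The proteins that bind snoRNAs were read from the same fit. In the C/D particle, NOP56 and NOP58, its scaffold proteins, were higher among 4 tested core genes, and SNU13 (log2 fold change 0.32, SE 0.10) and FBL, the methyltransferase (0.26, SE 0.09), did not pass. NOP56 stood at 361 ± 12.9 CPM in the rFGF4 libraries and 233 ± 10.5 CPM in the PBS libraries (n = 4 each, log2 fold change 0.63, SE 0.05, edgeR adjusted p = 0.000508). In the H/ACA particle, DKC1, the pseudouridine synthase, and NOP10 were higher among 4. DKC1 stood at 272 ± 12.6 CPM in the rFGF4 libraries and 187 ± 4.31 CPM in the PBS libraries (n = 4 each, log2 fold change 0.54, SE 0.05, edgeR adjusted p = 0.000819). GAR1 (0.34) and NHP2 (0.09) did not pass. Of 14 genes listed around assembly of the particles, not all of them assembly factors in the strict sense, 3 were higher and 0 were lower. The 3 were NUFIP1 (0.44), NAF1 (0.33), an H/ACA assembly factor, and TCOF1 (0.42). Over all tested genes 5.49% were higher and 4.54% lower, and these lists are short. The list medians were 0.39 for the C/D core, 0.37 for the H/ACA core and 0.16 for assembly, against 0.09 for the host genes and 0.00 over all tested genes.

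Of 18 factors of nonsense-mediated decay, only the helicase gene DHX34 was higher (0.47, SE 0.07, edgeR adjusted p = 0.00598) and 0 were lower, with a list median of 0.05. That is 5.56% of the list higher, near the 5.49% of all tested genes. UPF1, the central helicase of this pathway, had 0.07 and did not pass. Of 54 other tested snoRNA hosts, mostly protein-coding, 8 (14.8%) were higher and 0 were lower, with a median of 0.07. These were NOP56, NOP58 and DKC1, which are hosts as well as snoRNA-binding proteins, with GNL3 (0.49), PPAN (0.63), WDR43 (0.53), NCL (0.33) and HSPA8 (0.34). GNL3, PPAN, WDR43 and NCL act in the nucleolus, and HSPA8 is a cytosolic chaperone. Among the ribosomal protein genes of that list, RPL3 (−0.01) and RPL13A (0.08) did not pass. C6orf48, an older symbol of SNHG32 and so outside the naming rule, stood at 95.2 ± 10.5 CPM in the rFGF4 libraries and 94.96 ± 6.83 CPM in the PBS libraries (n = 4 each) and did not pass. Among these lists, the call for NOP10 ended without rFGF4 replicate 3 or PBS replicate 1, 2 or 3 (edgeR adjusted p up to 0.0712). That for NUFIP1 ended without rFGF4 replicate 3 or PBS replicate 1, 2 or 4 (up to 0.0599). That for NAF1 ended without rFGF4 replicate 1 or 3 or any PBS library, and with no filter (up to 0.0683).

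**Figure D5:**
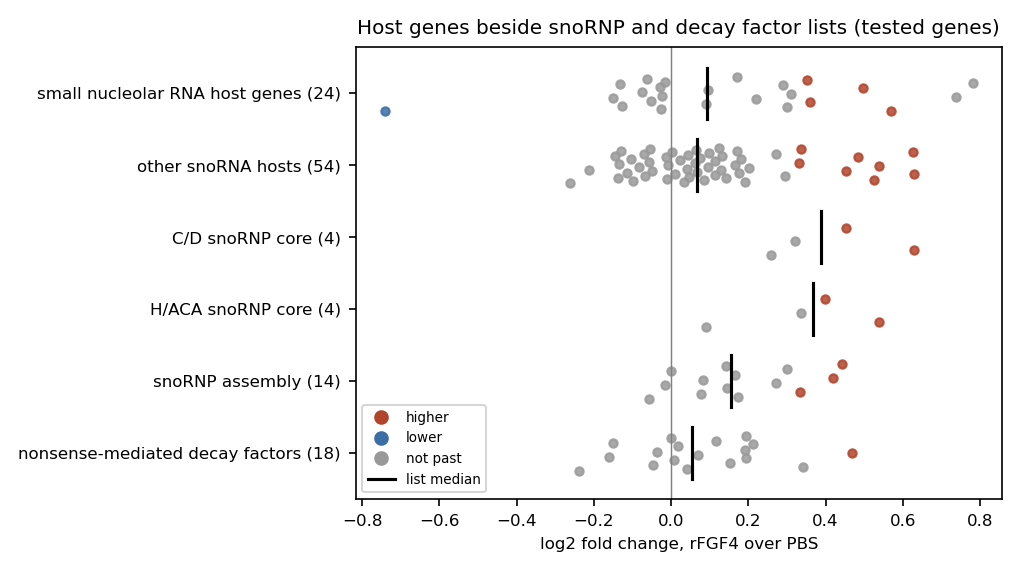
Log2 fold change, rFGF4 over PBS, of each tested gene in 6 lists, with the list median as a black line and the number of tested genes in brackets. The host genes have a median of 0.09, and the C/D and H/ACA core lists have medians of 0.39 and 0.37.

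In the keratinocyte marker list, DSG3 (−0.58), KRT15 (−0.56), DSC3 (−0.41) and LAMB3 (−0.28) were lower and 0 of 15 were higher, beside 4.54% lower and 5.49% higher among all tested genes. The list median was −0.12, and 7 of the 15 had positive values. For 6 of the 15 every rFGF4 library was below every PBS library, and for 1, ITGB4 (0.20), the reverse. Over all tested genes these shares were 9.26% and 10.1%. PKP1 (−0.68, edgeR adjusted p = 0.0527) and KRT14 (−0.17), both among the 6, did not pass, and ITGB4 did not either. The call for DSG3 ended without rFGF4 replicate 3 or PBS replicate 1 or 2, and that for KRT15 without rFGF4 replicate 3 or PBS replicate 2 or 4 (edgeR adjusted p up to 0.0570 and 0.0590). That for DSC3 ended without rFGF4 replicate 1 or 3 or PBS replicate 1, 2 or 3 (up to 0.0616), and that for LAMB3 without any 1 of the 8 libraries (up to 0.129) and under the 3 other filters. Their part in the results on host genes was not tested.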

How the data were processed

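RNA-seq values of 8 libraries were read from 1 table that the authors deposited with 2 columns per library. The FPKM columns hold 0.0001 where the count is 0. The count columns hold estimated counts, deposited as whole numbers. They pile up at 4 (9781 entries, against 3485 at 3), 8 and 12, so 1 fragment was taken as about 4 counts. The submitters' processing notes name HISAT2 2.0 and StringTie 1.3.0 without their steps. No build, annotation or strand setting is given in the sources used here.

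The 521 genes of the Y chromosome and the XIST locus were left out of 58825 because the identifiers are human. Genes whose FPKM averaged 1 or more were tested with edgeR 4.0.16 in R 4.3.3 (TMM, glmQLFit, glmQLFTest, two-sided). The SE is the size the test statistic implies, and 95% intervals use its degrees of freedom. Alternatives were 2 other scalings, 3 filters, DESeq2 1.42.0, limma 3.58.1 on log2(FPKM + 1) and log2(FPKM + 0.1), a replicate block, 8 left-out libraries and, chosen after seeing the data, counts divided by 4. The fit was tested on simulated data. Where nothing says that replicates came from separate cultures or animals, p-values measure only the spread between these libraries.

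The members and lists were chosen with earlier results of these data known. The named genes were every member, with library values for those past the threshold and the 3 with the highest mean FPKM, up to 4 list members past the threshold with the smallest p, and snoRNA entries and neighbours past the threshold or beside a called host. PPAN, WDR43, NCL and HSPA8, which fall outside the first 4 of their list, and list genes given as not past, were named after their values were seen. SNHG29 was removed from the list of other hosts because it is a member. No sequence is shown, since the reference sequences at hand are of the mouse.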

Additional observations from a re-analysis of the deposited data

Results flagged for a closer look

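In 8 of 92 groups of 4 libraries (46 named genes in 2 groups), the highest or lowest library lay far from the other 3, where chance gives about 1 in 20. SNHG6 stood at 90.4 CPM in rFGF4 replicate 4, with 58.9 to 59.7 CPM in the other rFGF4 libraries. SNHG1 stood at 101 CPM in PBS replicate 1, with 87.8 to 90.0 CPM in the other PBS libraries. SNHG7 stood at 84.4 CPM in PBS replicate 4, with 71.9 to 72.2 CPM in the others. Among the other named genes, HSPA8 had 3485 CPM in rFGF4 replicate 1, with 3066 to 3129 CPM in the other rFGF4 libraries. NOP10 had 83.5 CPM in PBS replicate 4, with 72.3 to 72.9 CPM in the others. DSC3 had 177 CPM in PBS replicate 4, with 195 to 198 CPM in the others. PPAN had 38.8 CPM in PBS replicate 3, with 32.4 to 33.4 CPM in the others, and NAF1 had 16.7 CPM in PBS replicate 2, with 16.0 to 16.1 CPM in the others.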

How the results depend on the processing

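Over the 18 alternatives, 382 values of the members' fold changes kept their direction and their side of the threshold, 25 lost a call, 9 gained one and 16 changed sign. Of the other named genes' values, 332 kept their call and 64 lost it. The number of host genes higher, 4, was 2 with no filter, with FPKM averaging at least 0.1 and with filterByExpr, 8 with DESeq2, and 2 to 3 with 1 library left out. The number lower was 1 throughout. Over all tested genes, the 633 higher and 524 lower became 982 and 846 with DESeq2, and 326 to 622 and 275 to 547 with 1 library left out. Sign changes were seen only in members not past the threshold and only with 1 library left out. Their log2 fold changes then ran from −0.140 to 0.144 for SNHG16, −0.0856 to 0.00161 for SNHG29, −0.224 to 0.119 for EPB41L4A-AS1, −0.0963 to 0.0653 for DANCR, −0.0897 to 0.0152 for GAS5, −0.233 to 0.00652 for SNHG6 and −0.320 to 0.0769 for SNHG25. DESeq2 also called SNHG15, SNHG9, SNHG3 and SNHG26, and limma called SNHG9. The causes were not tested. Correlations across genes between same-numbered libraries of the 2 groups were 0.12, 0.06, −0.02 and 0.27 for replicates 1 to 4. Those of other pairs were −0.19 to 0.08, below the values of replicates 1 and 4. Replicates 2 and 3 lay within that range and the labels state no pairing, so the numbers were not taken as pairs. Whether same-numbered libraries were handled together is not known. With a replicate block, 3 host genes were higher and 1 lower (561 and 452 over all genes), SNHG12, SNHG10, SNORA73B, NAF1, AC005363 and LAMB3 did not pass and SNHG7 did. The scalings moved the median of all genes by at most 0.03 on the log2 scale. Depth limits SNHG25 and SNHG9, the tested members with the fewest counts, and the snoRNA entries, whose counts may also include host RNA.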
